A study of Mus musculus with 21 samples.

Results

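The 7 genes described here encode the MAP3K2-MEK5-ERK5 kinase route and the MEF2 factors at its end: Map3k2 and Map3k3 (the kinases MEKK2 and MEKK3), Map2k5 (MEK5), Mapk7 (ERK5), and Mef2a, Mef2c and Mef2d. They were taken by symbol, and all 7 were found among the 31053 genes of the single-cell matrix. Their levels were read in 1 single-cell library of gp38+CD90+ colon stromal cells from a 12-week-old wild-type female C57BL/6 mouse at D3 of 2% DSS (dextran sulfate sodium, which damages the epithelial lining of the colon). Open chromatin around them was read in ATAC-seq peak lists of 4 colon stromal populations of male C57BL/6 mice of 12 weeks: CD138 (CD34-negative, CD138-positive cells), Myofibroblast, MRISC (Map3k2-regulated intestinal stromal cells) and CD34 SP. The sort kept cells that carried gp38 and lacked CD45, Epcam and CD31, and then used subset antibodies. The labels give no genotype or treatment for these 4 populations. There were 2 ATAC-seq libraries and 1 total peak list per population, and 1 single-cell library, so no difference below has a replicate check and no test was possible. Intervals are 95% intervals for counting error only. Bulk RNA of Map3k2-/- and wild-type colon was not analysed here, so nothing below compares the genotypes.

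As background, MEKK2 and MEKK3 are closely related kinases that phosphorylate MEK5, the one known direct activator of ERK5. Active ERK5 phosphorylates MEF2 proteins, DNA-binding factors first known from muscle, and MEF2 sites drive Klf2, a Krüppel-like factor induced by this route in endothelial cells. The route is regulated by phosphorylation, which neither RNA counts nor open chromatin measure. Rspo1, an R-spondin that raises Wnt signalling in intestinal stem cells, and Klf2 were read beside the members.

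The library held 72920197 UMIs (unique molecular identifiers, each counting 1 captured RNA molecule) in 11376 kept cells, with a median of 6052 per cell. Clustering gave 8 stromal clusters of at least 50 cells with 11034 cells in all. Cluster 5 (1115 cells) was smooth muscle-like, led by Actg2, Myh11 and Cnn1. Cluster 1 (2848 cells) was lamina propria fibroblast-like, cluster 4 (1353 cells) CD34+ fibroblast-like, cluster 8 (89 cells) mesothelium-like and cluster 9 (77 cells) crypt-top fibroblast-like. Clusters 2 (2723 cells, led by Spock3 and Hapln1), 3 (2272 cells, led by Cxcl13 and Mgp) and 6 (557 cells, led by Saa3 and Mmp10) kept no name. In the 8 clusters kept as stromal, Pdpn, which encodes gp38, had 110.8 to 401.6 UMIs per 1000000 UMIs (CPM) and Thy1 (CD90) 36.9 to 209.5 CPM, while Ptprc (CD45) had at most 0.110 CPM. The clusters left out did hold other cells: Ptprc had 8.15 CPM in cluster 7 (284 cells, immune markers) and 23.3 CPM in cluster 10 (34 cells), and Epcam had 1474 CPM in cluster 11 (24 cells). Cd34 itself did not single out cluster 4, with 644.7 CPM there, 604.7 in cluster 2 and 686.0 in cluster 3. Cluster 4 also met the rule for CD34+CD81+ fibroblasts. Cd81 had 782.7 CPM there and 1425 in cluster 8, against at most 119.4 in the other stromal clusters.

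Map3k2 RNA was nearly even across the large stromal clusters. The level was 38.9 CPM in smooth muscle-like cluster 5 (interval 34.6 to 43.6), 36.0 in cluster 1, 38.2 in cluster 2, 35.0 in cluster 3, 36.3 in CD34+ fibroblast-like cluster 4 and 39.2 in cluster 6. All 6 of these intervals overlapped. The highest of the 6 stood 1.12-fold above the lowest (interval 0.934 to 1.34), a smaller spread than in nearly all other genes: the same measure had a median of 1.55 over 5850 genes with at least 20 CPM, and Map3k2 lay at percentile 0.855. In the small clusters Map3k2 had 33.4 CPM in cluster 8 and 44.6 in cluster 9, with wide intervals (22.0 to 48.6 and 28.3 to 67.0). Kept cells held 36.6 CPM of Map3k2 and empty droplets 36.3, and the part of free RNA in the level of each cluster was not tested. A Map3k2 UMI was seen in 2298 kept cells (20.2%), of which 325 had 2 or more.

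Map3k3, the paralog that can also start the route, was sparse. It had 8.57 CPM in cluster 5, 6.75 in cluster 1, 8.25 in cluster 2, 7.28 in cluster 3, 7.95 in cluster 4 and 8.17 in cluster 6. The highest over the lowest was 1.27 (interval 0.942 to 1.71), and the 552 UMIs of the whole library set this precision. No cluster could be ranked above another for either MAP3K gene. Levels of different genes are not compared here, since 3' counts are not scaled to what each transcript yields.

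Map2k5, which encodes MEK5, varied more. It was lowest in smooth muscle-like cluster 5, at 17.1 CPM (interval 14.3 to 20.4), and 18.5 in cluster 3 and 20.4 in cluster 4 overlapped it. It was 25.5 in cluster 1, 28.1 in cluster 2 and 30.8 in cluster 6 (interval 25.7 to 36.6). Cluster 6, led by Saa3 and Il11, stood 1.80-fold above cluster 5 (interval 1.41 to 2.29). Cluster 5 stood at 0.699 of all other stromal cells (17.1 against 24.5 CPM, interval 0.584 to 0.836).

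Mapk7, which encodes ERK5 itself, varied little between the large clusters. It had 17.5 CPM in cluster 5, 22.0 in cluster 1, 22.1 in cluster 2, 21.9 in cluster 3, 18.8 in cluster 4 and 20.2 in cluster 6. Cluster 2 was 1.26-fold above cluster 5 (interval 1.04 to 1.53), at percentile 11.8 of this range over the 5850 genes. The lowest value, 9.90 CPM in mesothelium-like cluster 8, rested on 8 UMIs (interval 4.28 to 19.5). Over all kept cells Map2k5 had 23.6 CPM, against 27.5 in empty droplets, with overlapping intervals. Mapk7 had 21.0 CPM in kept cells (interval 19.97 to 22.1), against 28.0 in empty droplets (interval 23.2 to 33.4).

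**Figure D1:**
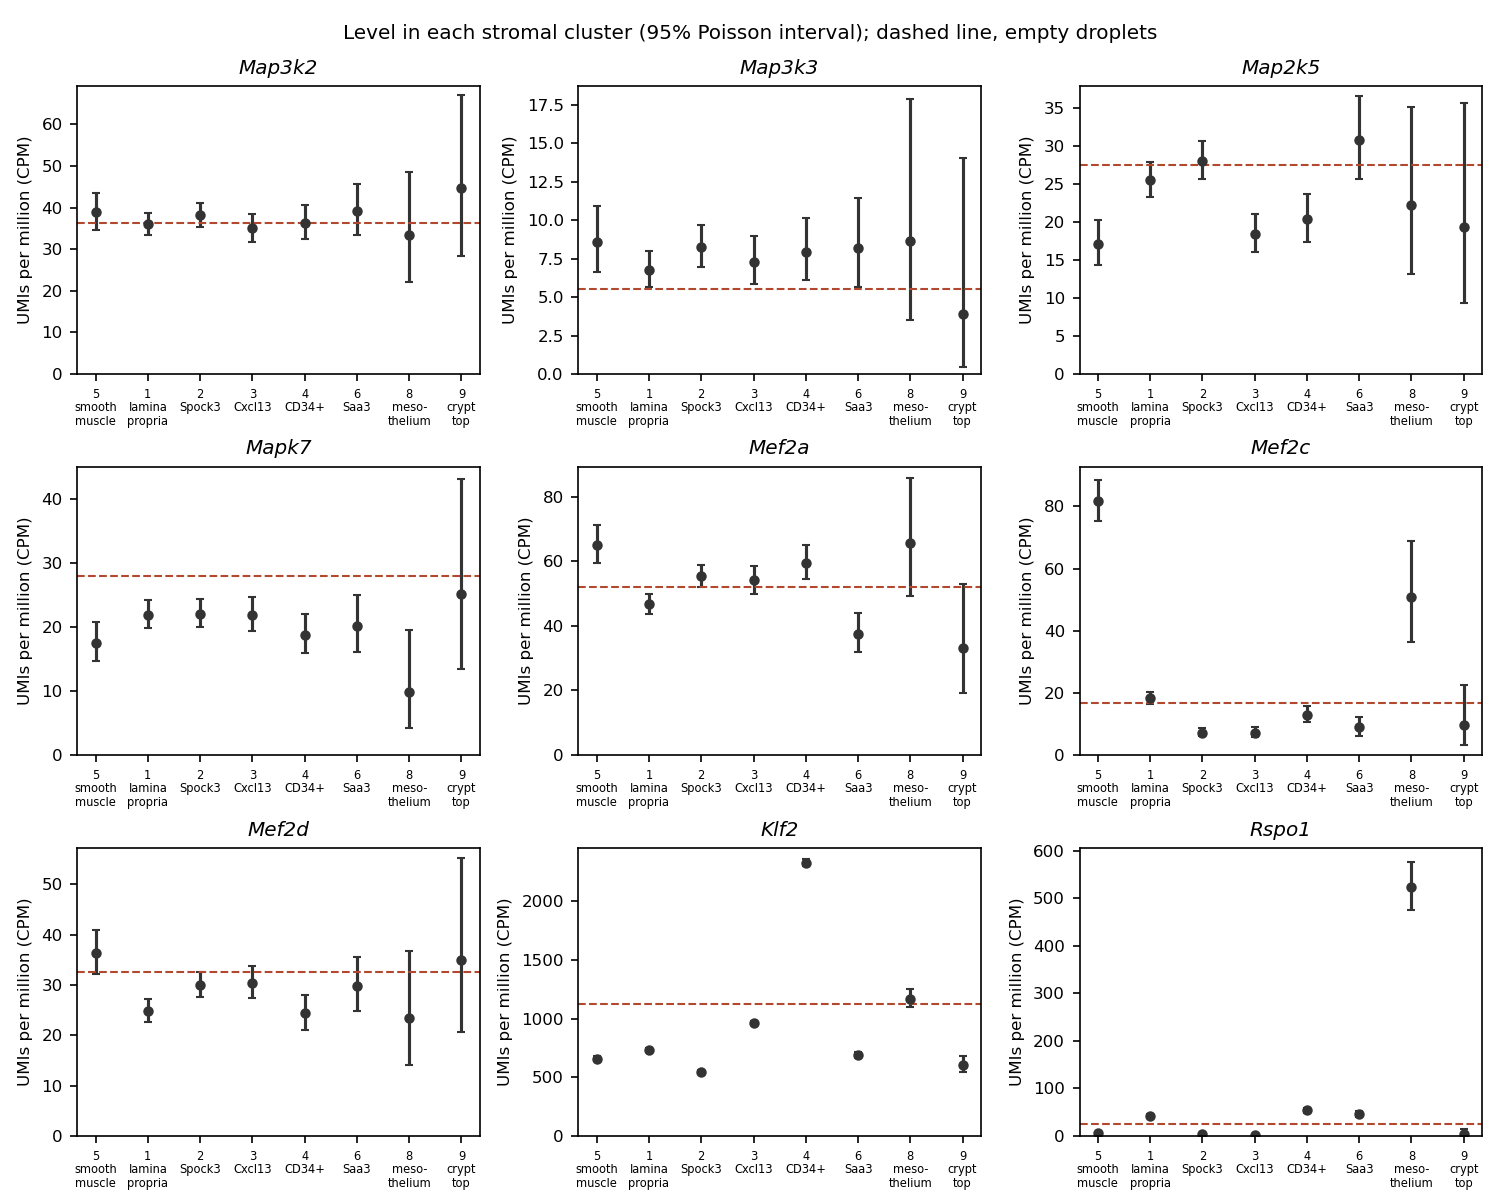
Level (CPM, vertical axis) of the 7 genes, Klf2 and Rspo1 in the 8 stromal clusters, cluster 5 first; bars are 95% Poisson intervals, which cover counting error only, and the dashed line is the level in empty droplets. Mef2c stands out in cluster 5 at 81.7 CPM, while Map3k2 stays between 33.4 and 44.6 CPM in all 8.

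Among the MEF2 genes, Mef2c marked the smooth muscle-like cells. It reached 81.7 CPM in cluster 5 (interval 75.4 to 88.4, 620 UMIs), against 18.3 in cluster 1, 7.21 in cluster 2, 7.20 in cluster 3, 13.0 in cluster 4 and 8.89 in cluster 6. Mesothelium-like cluster 8 came next, at 50.8 CPM (interval 36.4 to 68.9, 41 UMIs), and its interval overlapped no other stromal cluster. Cluster 5 held 6.81 times the level of all other stromal cells together (81.7 against 12.0 CPM, interval 6.12 to 7.57). At 3000 UMIs per cell, 21.4% of cluster 5 cells had a Mef2c UMI (228 of 1064, interval 19.0 to 24.0), against 2.01% in cluster 3 (42 of 2092, interval 1.45 to 2.70). Its range over the 6 clusters of at least 500 cells was 11.4-fold (interval 9.05 to 14.2). Of the 5850 genes with at least 20 CPM in stromal cells, 26.5% had a 2-fold or larger range, and of the 5 members above that minimum 0 did; Mef2c, at 19.5 CPM in stromal cells, and Map3k3, at 7.65 CPM, lay below it. Between cluster 5 and other stromal cells 6 members had at least 20 CPM in either group, all but Map3k3. One of the 6, Mef2c, was at least 2-fold higher (7.36% of 6412 genes were) and 0 were at least 2-fold lower (6.07% of genes). Mef2c passed the minimum through cluster 5 alone, so its place in that count is a description.

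Mef2c is also made by endothelial and some immune cells, so their markers were read in cluster 5. The 6 endothelial markers summed to 11.3 CPM there, with 2 of them at 0, against 3.88 to 41.6 CPM in the other stromal clusters. Pecam1 had 1.71 CPM and Cdh5 was at 0. Ptprc was at 0, and the 6 macrophage markers summed to 15.2 CPM against 7.76 to 28.5 CPM in the other stromal clusters. At a finer clustering the smooth muscle-like cells split in 2, and both parts kept a high Mef2c level. The part led by Actg2, Cnn1 and Hhip had 94.8 CPM (863 cells, interval 86.6 to 103.6), and the part led by Rgs5, a pericyte marker, had 54.7 CPM (273 cells, interval 46.0 to 64.5).

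Mef2a and Mef2d, which encode the more widely expressed MEF2 factors, differed less between clusters than Mef2c. Mef2a had 65.1 CPM in cluster 5 (interval 59.5 to 71.1), against 46.7 in cluster 1, 55.3 in cluster 2, 54.0 in cluster 3, 59.6 in cluster 4 and 37.5 in cluster 6 (interval 31.8 to 43.9). Cluster 5 stood 1.74-fold above cluster 6 (interval 1.45 to 2.08), at percentile 63.8 of the same range over the 5850 genes, and cluster 4 overlapped cluster 5. Mef2d had 36.4 CPM in cluster 5 (interval 32.2 to 41.0), against 24.9 in cluster 1, 30.05 in cluster 2, 30.5 in cluster 3, 24.3 in cluster 4 and 29.8 in cluster 6, a 1.49-fold range at percentile 44.2. In cluster 5 against all other stromal cells the fold was 1.26 for Mef2a (interval 1.14 to 1.38) and 1.31 for Mef2d (interval 1.15 to 1.49).

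Open chromatin at Mef2c differed between the sorted populations, whose match to the single-cell clusters was not tested. Among stromal clusters Sdc1, which encodes CD138, was highest in cluster 6, at 405.8 CPM, and had 44.4 in cluster 5. Mef2c RNA had 8.89 CPM in cluster 6 and 81.7 in cluster 5. The Mef2c gene lies on chr13:83504034-83667080 (mm10, plus strand), and its body with 10 kb on both sides held 33 peaks in CD138 and 24 in Myofibroblast, against 9 in MRISC and 9 in CD34 SP. Per 100 kb these counts lay at percentile 73.9, 62.8, 30.6 and 37.2 of all protein-coding genes, in that order. The peaks covered 9.62 kb in CD138, 5.88 in Myofibroblast, 4.56 in MRISC and 4.75 in CD34 SP. Myofibroblast therefore stood apart less in covered bases than in peak number. CD138 and Myofibroblast together held at least 2 times the peaks of MRISC and CD34 SP together at 1 of the 7 members, Mef2c, where 8.36% of 11276 genes did, and the opposite held at 0 of 7 members (4.0% of genes). The lists differ in length, but the order was the same among peaks above the median score of each list (17 in CD138 and 12 in Myofibroblast, 7 in MRISC and 4 in CD34 SP) and with the lists shortened to equal number (23 and 17, 8 and 9). Peaks merged over the lists gave 49 Mef2c regions, of which 20 were found in CD138 alone, 11 in Myofibroblast alone, 4 in MRISC alone and 2 in CD34 SP alone. Over the 310998 merged regions in the windows of all protein-coding genes, 23.7% were found in CD138 alone, 21.6% in Myofibroblast alone, 17.7% in MRISC alone and 11.7% in CD34 SP alone. At Mef2c the same shares were 40.8, 22.4, 8.16 and 4.08%, and CD138 also has the longest list, with 216805 peaks against 143411 in CD34 SP. A single-list peak is often weak, so the strong ones are given next. Scores are the authors' own and are quoted as the percentile within a list.

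An intronic region at chr13:83565742-83566117 was open in CD138 (percentile 84.4) and in Myofibroblast (percentile 83.9), with no peak in the MRISC and CD34 SP lists. Its central 300 bases are shown because they carry the difference between populations and hold 1 match to the MEF2 word, the consensus to which MEF2 proteins bind, here in capitals (chr13:83565780-83566079, plus strand, GRCm38).
Mef2c intronic region: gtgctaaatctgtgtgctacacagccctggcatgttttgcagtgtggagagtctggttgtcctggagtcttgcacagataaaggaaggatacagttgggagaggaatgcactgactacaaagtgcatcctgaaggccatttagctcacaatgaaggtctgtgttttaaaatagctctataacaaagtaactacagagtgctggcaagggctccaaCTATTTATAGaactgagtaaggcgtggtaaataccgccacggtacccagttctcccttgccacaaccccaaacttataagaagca
Another intronic region, chr13:83608932-83609832, had a peak in CD138 alone, at percentile 92.5, and no MEF2 word. Words also lay inside peaks of MRISC and CD34 SP alone. These were in Mef2c (chr13:83524034-83524043, within 1 kb of a start), Mef2a (chr7:67259818-67259827) and Mef2d (chr3:88150199-88150208 and chr3:88150222-88150231). The words therefore did not go with the CD138 and Myofibroblast lists alone.

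A further Mef2c intronic region, chr13:83603575-83605054, was open in all 4 lists but ranked higher in CD138 (percentile 93.2) and Myofibroblast (95.8) than in MRISC (76.3) and CD34 SP (72.4). It held 3 MEF2 words, and 2 of them, identical and close together, lay inside the peak of all 4 populations. They are shown in capitals with 15 bases on each side (chr13:83603960-83604021, plus strand).
Mef2c paired words: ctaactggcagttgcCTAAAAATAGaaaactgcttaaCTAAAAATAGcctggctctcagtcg
A match is a match of letters and does not show that a MEF2 protein binds there.

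**Figure D2:**
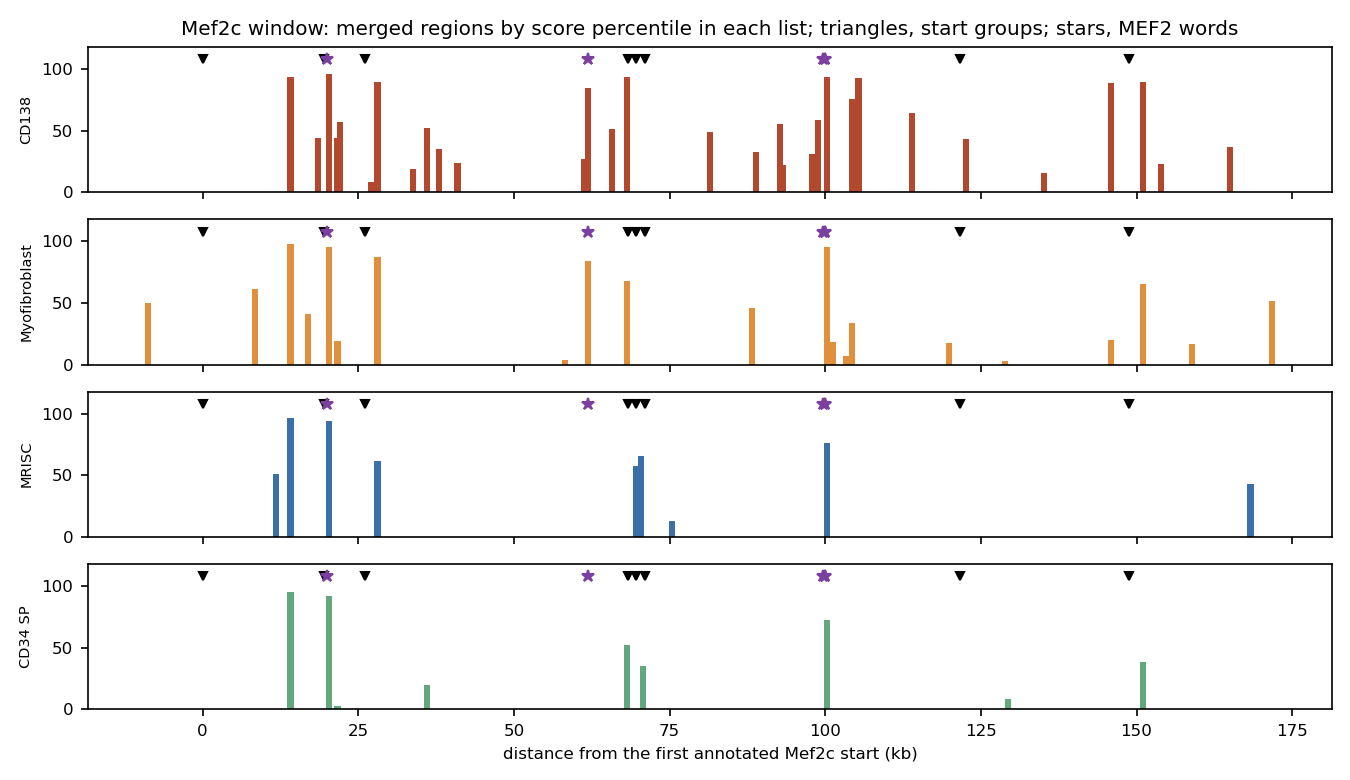
Merged open regions in the Mef2c window by distance from the first annotated start (horizontal axis, kb), with the score percentile in each population's list as bar height; triangles mark groups of annotated starts and stars MEF2 words in regions of 2 or more lists. CD138 and Myofibroblast, in the upper panels, hold 20 and 11 regions found in 1 list alone, against 4 in MRISC and 2 in CD34 SP. These are 40.8, 22.4, 8.16 and 4.08% of the Mef2c regions. Over the regions of all protein-coding genes the shares are 23.7, 21.6, 17.7 and 11.7%, so the Myofibroblast share is near that of genes at large.

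Mef2c has several annotated starts, and the peaks of the lists covered them unevenly, which does not show which starts are used. The first group of starts, at the gene's 5' end, had no peak within 1 kb in any list. The group 19.4 kb inside, at 83523473 to 83524891, was covered in all 4, with percentiles of 96.4 in CD138, 95.9 in Myofibroblast, 94.3 in MRISC and 92.1 in CD34 SP. The group at 83572348 to 83572381 was covered by a CD138 peak at percentile 93.9 (83571889 to 83572439). Myofibroblast and CD34 SP had smaller peaks beside that group, at percentiles 67.9 and 52.4, which stopped short of a start, and MRISC had none within 1 kb. The group at 83573607 was covered in MRISC alone. The covering peak ranked below another MRISC peak within 1 kb (83574239 to 83574514, percentile 65.9), which did not reach a start of this group.

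Every member had open chromatin over a start in all 4 populations. Over all protein-coding genes, 58.0% had a peak over a start in CD138, 53.8% in Myofibroblast, 59.9% in MRISC, 59.4% in CD34 SP and 50.6% in all 4 lists. All 7 also had a peak within 1 kb of a start in every list, as did 68.0, 64.8, 67.1 and 64.9% of protein-coding genes in the same order. Among the 9807 genes with at least 5 CPM in the kept cells, the share with a peak over a start in all 4 lists was 90.7%, so the 7 of 7 is near what genes of this expression show. The peak over the Map3k3 start lay at percentile 99.9 in CD138, 99.7 in Myofibroblast and 99.8 in MRISC and CD34 SP. That over the Map3k2 start lay at 99.7 in CD138, 99.1 in Myofibroblast, 97.6 in MRISC and 97.3 in CD34 SP. The Map2k5 start lay at 96.0 in CD138, 90.4 in Myofibroblast, 89.6 in MRISC and 82.1 in CD34 SP. The Mapk7 start at chr11:61494266-61494296 lay between 97.1 and 99.2. The second annotated Mapk7 start, inside the gene, had no peak over it in any list.

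Outside Mef2c, peak numbers of the members did not set the populations apart in 1 direction. Map3k2 had 13 peaks in each of CD138, Myofibroblast and MRISC and 10 in CD34 SP, and 4 of its 30 merged regions were open in all 4 lists. One of these, in an intron 10.1 kb past the start, lay at percentile 85.9 in CD138, 71.9 in Myofibroblast, 90.7 in MRISC and 87.9 in CD34 SP. Map3k3 had 19, 8, 17 and 10 peaks in CD138, Myofibroblast, MRISC and CD34 SP, Map2k5 had 17, 12, 14 and 9, and Mapk7 had 6, 4, 8 and 6. The windows of Map3k2 (Ercc3), Map3k3 (Limd2, Gm10840 and Strada), Mapk7 (Mfap4) and Mef2a (Lysmd4) also hold other coding genes, so a peak there may belong to those.

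Mef2d was the member with the densest open chromatin. Its window held 20 peaks in CD138, 13 in Myofibroblast, 27 in MRISC and 23 in CD34 SP, which per 100 kb put it at percentile 98.5, 91.3, 99.1 and 98.1 of all protein-coding genes in those lists. CD138 and Myofibroblast together minus MRISC and CD34 SP together gave -17 peaks, and -14 in the gene body alone, -15 with 50 kb on both sides and -18 with equal lists. Among peaks above the median score the difference was -1, with counts of 14 in CD138, 10 in Myofibroblast, 16 in MRISC and 9 in CD34 SP. Of its 38 regions, 6 were open in all 4 lists, the most of any member. Mef2a had 19, 12, 15 and 17 peaks, with 3 of 35 regions in all 4 lists. Over the 7 members, 237 merged regions were found, of which 24 were in 4 lists (10.1%), 15 in 3 (6.33%), 25 in 2 (10.5%) and 173 in 1 (73.0%). Over the regions of all protein-coding genes the shares were 9.13, 6.12, 10.0 and 74.7%, so the sharing at the members is near that of genes at large.

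**Figure D3:**
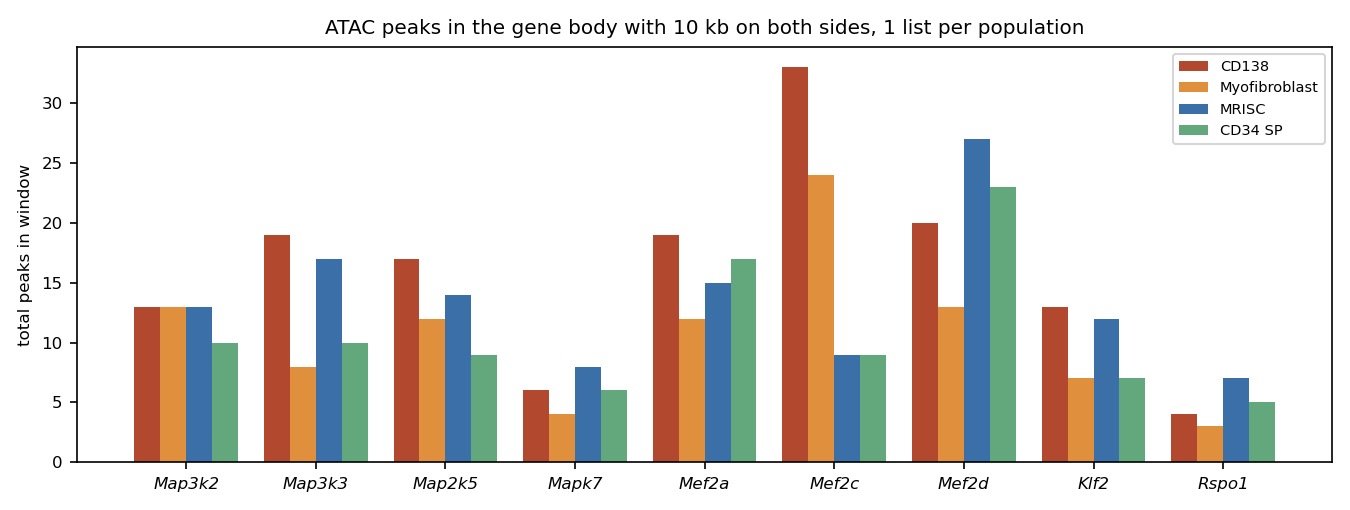
Number of total ATAC peaks (vertical axis) in the gene body with 10 kb on both sides, for the 7 genes, Klf2 and Rspo1, with 1 bar per population and no error since each population has 1 list. Mef2c has 33 and 24 peaks in CD138 and Myofibroblast, against 9 and 9 in MRISC and CD34 SP. These cover 9.62, 5.88, 4.56 and 4.75 kb in that order. Mef2d has the most in MRISC, at 27.

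The central 200 bp were taken round the midpoint of each peak, and they reach past the ends of peaks shorter than 200 bp. MEF2 words in the central 200 bp were found in 3 of 127 member peaks in CD138 (2.36%, exact binomial interval 0.490 to 6.75), 5 of 86 in Myofibroblast (5.81%, interval 1.91 to 13.0), 1 of 103 in MRISC (0.971%, interval 0.0246 to 5.29) and 1 of 84 in CD34 SP (1.19%, interval 0.0301 to 6.46). Over all peaks of the same lists the shares were 2.36, 2.54, 1.94 and 2.04%, each inside the interval of the members. Member regions of 2 or more lists with a word were found at Mef2a, Mef2c and Mef2d and, past the end of Map3k2, in 1 weaker region of CD138 (percentile 32.2) and Myofibroblast (39.4). Map3k3, Map2k5 and Mapk7 had none. In Mef2a, a word in an intron 129 kb from the start lay inside the MRISC, CD34 SP and CD138 peaks (chr7:67243841-67243880, minus strand). In Mef2d, a word upstream of the start lay inside the peaks of all 4 lists (chr3:88140778-88140817, plus strand). Both are printed to set beside those of Mef2c, with the word in capitals.
Mef2a intron: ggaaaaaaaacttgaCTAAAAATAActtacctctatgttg
Mef2d upstream: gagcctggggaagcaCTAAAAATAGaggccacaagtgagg

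Klf2, the textbook MEF2 target of the route, had such a word at its own promoter. Its start (chr8:72319033, plus strand) lay under a peak at percentile 99.8 in CD138, 99.8 in Myofibroblast, 99.7 in MRISC and 99.6 in CD34 SP, and the word began 89 bases before the start, inside the peak of all 4 lists. The 150 bases before the start are shown for that reason, with the word in capitals (chr8:72318883-72319032, GRCm38).
Klf2 upstream: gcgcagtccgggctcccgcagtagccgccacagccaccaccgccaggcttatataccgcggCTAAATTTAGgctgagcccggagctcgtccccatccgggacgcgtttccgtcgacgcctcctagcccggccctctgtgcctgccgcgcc
Of 32851 RefSeq promoters (250 bases before to 50 after the start), 3.19% hold the word on either strand. Among the members matched in that table, Mef2a held it and Map3k3, Map2k5, Mapk7, Mef2c and Mef2d did not.

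Klf2 RNA did not follow the RNA of the kinases. It was highest in CD34+ fibroblast-like cluster 4, at 2329 CPM, and next in mesothelium-like cluster 8, at 1171 CPM (interval 1098 to 1248). Klf2 had 659.7 CPM in cluster 5, 736.3 in cluster 1, 547.2 in cluster 2 and 961.8 in cluster 3. In clusters 6 and 9 it had 693.5 and 607.3 CPM. Cluster 4 stood 3.25-fold above all other stromal cells (interval 3.20 to 3.31). In the same comparison Map3k2 stood at 0.981 (36.3 against 37.0 CPM, interval 0.869 to 1.11), Mapk7 at 0.888 (interval 0.751 to 1.05) and Mef2a at 1.14 (interval 1.03 to 1.25). Map2k5 stood at 0.845 (interval 0.720 to 0.992), Mef2d at 0.832 (interval 0.719 to 0.963) and Mef2c at 0.635 (interval 0.521 to 0.774). Of the 6 members with at least 20 CPM in either group (all but Map3k3), 0 passed 2-fold in cluster 4, where 4.46% of 6141 genes were at least 2-fold higher and 5.76% at least 2-fold lower. Kept cells held 894.5 CPM of Klf2, against 1125 CPM in empty droplets, and the part of free RNA in the clusters with less Klf2 was not tested.

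Rspo1 was highest in mesothelium-like cluster 8, at 524.9 CPM (interval 476.1 to 577.4). It had 54.1 CPM in cluster 4, 45.4 in cluster 6 and 42.5 in cluster 1, and at most 6.33 in clusters 2, 3, 5 and 9. Its start was covered by a peak in MRISC (percentile 91.0) and CD34 SP (percentile 71.7) and by none in CD138 and Myofibroblast.

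Cells with a Klf2 or Rspo1 UMI were then set against cells without one, at a matched depth of 3000 UMIs per cell (10313 stromal cells, 721 shallower ones left out). None of the 7 members was tied to either gene in a way that held when the thinning was drawn again. In the draw analysed first, Map3k2 was seen in 10.7% of the 6897 cells with Klf2 and 9.16% of the 3416 without, a ratio of 1.17 (interval 1.03 to 1.33). Over 20 draws the ratio averaged 1.03 and ran between 0.946 and 1.13. Map3k3 was seen in 1.97% of cells with Klf2 and 2.72% without, a ratio of 0.724 (interval 0.558 to 0.940) that averaged 0.977 over the draws (0.765 to 1.18). The other 5 members had intervals that included 1 and averages between 0.967 and 1.05. Of the 5 members with at least 20 CPM in stromal cells, 0 had a ratio of at least 1.25 in the first draw (1.42% of 5849 genes did) and 0 a ratio of at most 0.8 (0.701% of genes). Compared within clusters in that draw, 0 of the 5 reached 1.25 (0.41% of genes) and 0 were at most 0.8 (0.137% of genes). Map3k3, at 0.721 within clusters, and Mef2c lay below the minimum of 20 CPM, so they are not set against these shares.

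With Rspo1, seen in 632 of the thinned cells, all 7 intervals included 1. Map3k2 was seen in 12.0% of cells with Rspo1 and 10.1% without (ratio 1.19, interval 0.958 to 1.48), and its average over 20 draws was 0.999. Map2k5 had the highest ratio, with 8.54% against 6.64% (1.29, interval 0.986 to 1.68), and an average of 1.14 (0.862 to 1.49). Map2k5 was the 1 of the 5 members above 20 CPM with a ratio of at least 1.25 (6.87% of genes), and 0 of the 5 had at most 0.8 (9.47% of genes). Within clusters 0 of the 5 reached 1.25 (4.65% of genes) or were at most 0.8 (6.39% of genes). Mef2d averaged 0.883 (0.738 to 1.09). A ratio inside these intervals could not be told from 1 at this depth.

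**Figure D4:**
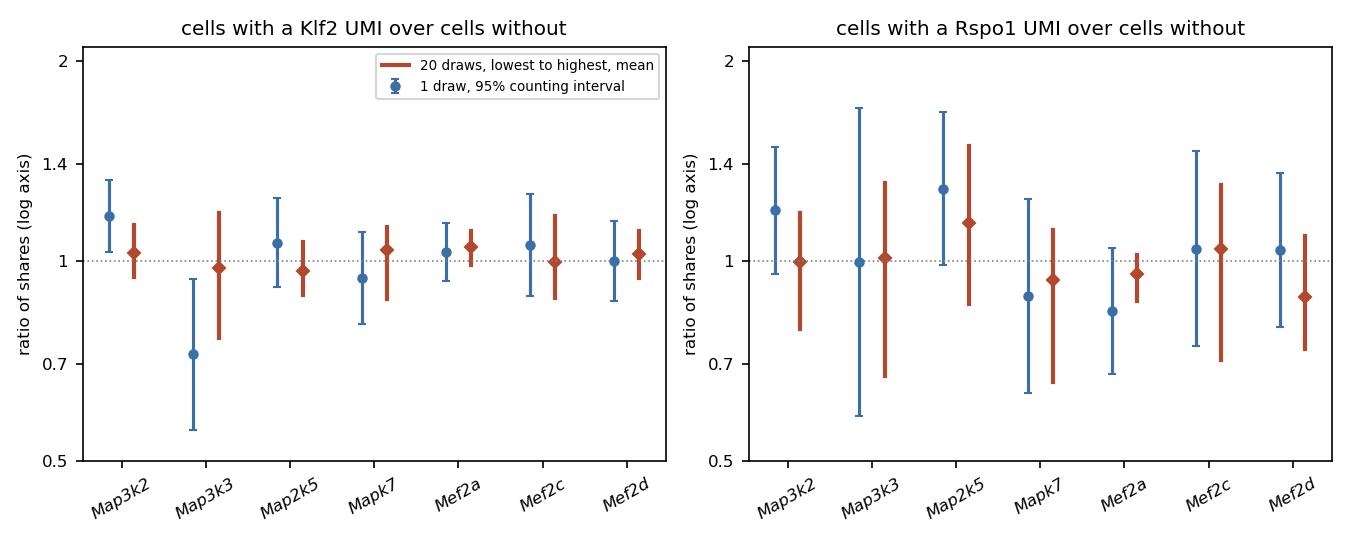
Share of cells with a UMI of each gene among cells with a Klf2 UMI (left) or a Rspo1 UMI (right), divided by the share among cells without (log axis), at 3000 UMIs per cell. Blue points are 1 draw with its 95% counting interval and red bars the lowest to the highest of 20 draws with their mean; the Map3k2 ratio with Klf2 is 1.17 in the first and averages 1.03.

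The members were too sparse to be followed as a cascade within 1 cell. At 3000 UMIs, 57.6% of stromal cells had no UMI of any member and 33.4% had 1 member, while 4 of 10313 cells had a MAP3K gene, Map2k5 and Mapk7 together (73 of 11034 before thinning). Of the 21 pairs of members, Mef2a with Mef2c had an interval that excluded 1: 96 cells held both, 1.27 times the product of their shares (interval 1.03 to 1.55), in the thinned draw analysed first. Mef2a and Mef2c were both highest among the large clusters in cluster 5, and the part of this in the pair was not tested. The pair Map3k2 and Map2k5 had 74 cells, 1.04 times the product (interval 0.817 to 1.31).

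A list of 36 other genes of the route and its neighbours (kinases, histone deacetylases that bind MEF2, chaperones and targets) was read in the same comparisons. It includes Klf2 and Rspo1, both described above, and was chosen with earlier results of these data known. Its counts are therefore descriptions, and do not show an excess over all genes. In cluster 5, 0 of 25 with enough counts were at least 2-fold higher than in other stromal cells and 2 were at least 2-fold lower (7.36 and 6.07% of all genes). The 2 were Dusp6, a phosphatase of ERK1/2, with 16.2 against 58.2 CPM, and Rspo1, with 6.33 against 31.5 CPM. The list's median log2 fold was 0.12, and 0.08 over all genes. In cluster 4, 3 of 24 were at least 2-fold higher and 0 lower (4.46 and 5.76% of all genes). The 3 were Klf2, Klf4 (another Krüppel-like factor, 946.8 against 400.5 CPM) and Rspo1 (54.1 against 25.5 CPM). The median was -0.10 for the list and -0.17 over all genes.

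The genes whose levels over the 9 clusters of at least 50 cells were most like Map3k2 were Snu13, Sarnp, Tmem70, Ddx50 and Stau1, with Pearson r between 0.893 and 0.940 on log2(CPM + 10) among 5862 genes. For Mef2c they were Uqcrq, Cox5b, Fnbp1, Tmsb4x and Sema5a (r 0.933 to 0.946). Of these, Sema5a had 89.9 CPM in cluster 5 and 97.8 in cluster 8, against 12.6 in cluster 4, and Tmsb4x had 5470 CPM in cluster 5, against 2128 in cluster 4. All points come from 1 library, and the Map3k2 order follows small differences in a nearly even gene. Among members, Map3k2 had r of 0.73 with Mef2d and -0.65 with Mef2a over the same clusters.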

How the data were processed

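The 7 members, the lists and the comparisons were chosen with earlier results of these data known. The deposited single-cell files hold whole-number UMI counts, made by the authors on mm10 using Cell Ranger (3.0.0 per the file header) with bcl2fastq and Seurat, per the submitters' processing notes. The deposited peak lists give a score per peak, made with bcl2fastq and bedtools on mm10, per the same notes. Which caller made the peaks, what the score means and whether libraries were pooled is not given in the sources used.

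Of 11484 barcodes, the 11376 with 500 or more genes and no more than 10% mt- UMIs were kept. The cell types were rebuilt from the counts, so they may differ from the study's: 2000 variable genes, 30 components, 15 neighbours and Leiden clustering at 0.5 (scanpy 1.11.5, leidenalg 0.10.2) gave 11 clusters. A name needed 3 markers with 20 CPM or more and 2 times the level of the remaining cells, and 1 of them among the 10 leading genes. No doublets were removed. Cluster 4 also held 5 of the markers of CD34+CD81+ fibroblasts. Levels have exact Poisson and shares exact binomial intervals. Folds and ratios have log-normal intervals. Empty droplets were the 546978 barcodes with at most 100 UMIs.

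Windows were the gene body with 10 kb on both sides, and starts were taken from GENCODE vM21 (GRCm38, equal to mm10 in coordinates). Promoter sequences and genome came from RefSeq (GRCm38.p6). The MEF2 word is a 10-base palindromic consensus, so 1 strand covers both. Read depth of the ATAC-seq libraries is unknown. Overlap, ratio and fold computations were tested on simulated data (bedtools 2.31.1). Named genes were the 7 members, Klf2 and Rspo1, the 5 genes most like Map3k2 and Mef2c, and listed route genes past 2-fold. Other genes were named as markers.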

Additional observations from a re-analysis of the deposited data

How the results depend on the processing

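No paired analysis was possible because each population has 1 peak list and the single-cell data are 1 library, so no library could be left out either. Of 218 recomputed values, 171 moved by less than their counting interval or kept within 1.5 times. The cause of the others was not tested. The level of each member kept within its spread under other cell filters and without the 5% of cells with the most UMIs, except that the Mef2c fold in cluster 5 became 7.60 without those cells. Co-detection with Klf2 depended on the draw and the depth. The ratio of Map3k2 turned to 0.978 at 2000 UMIs and was 1.03 as the mean of 20 draws. That of Map3k3 turned to 1.27 at 2000 UMIs and 1.198 without thinning, and was 0.960 at 4000 UMIs and 0.977 as the mean of 20 draws. At 4000 UMIs Map2k5 had 0.892 and Mapk7 1.11, and without thinning Mapk7 had 1.26 and Mef2a 1.18. With Rspo1, Map3k3 had 0.449 at 2000 UMIs, Mef2d 0.725 at 4000 UMIs and Mef2a 1.17 without thinning. The 20 draws were added after seeing the data. At Leiden resolution 1.0 the CD34+ group held 482 cells, and the folds there were 0.842 for Map3k2, 0.709 for Map3k3, 1.15 for Map2k5 (turned), 1.29 for Mef2a and 0.875 for Mef2c. Map2k5 had 27.0 CPM in these 482 cells (interval 21.8 to 33.1). It had 15.7 CPM (interval 12.4 to 19.6) in 905 cells of another cluster, named by CD34+CD81+ fibroblast markers alone. With 50 kb on both sides the 7 windows held 150 peaks in Myofibroblast, 163 in MRISC and 130 in CD34 SP. Above the median score they held 68 in CD138, 50 in Myofibroblast, 53 in MRISC and 40 in CD34 SP. The difference of CD138 and Myofibroblast minus MRISC and CD34 SP at Mef2c was 18 above the median score and 23 with equal lists, and that at Map2k5 turned to -1 with 50 kb. In whole peaks the MEF2 word was in 6.80% of member peaks in MRISC (interval 2.78 to 13.5), against 3.51% of all peaks. In CD34 SP it was in 9.52% (interval 4.20 to 17.9), against 4.86%, and in CD138 in 4.72% (interval 1.75 to 10.0), against 2.55%. In Myofibroblast it was in 6.98% (interval 2.60 to 14.6), against 2.51%. Only in Myofibroblast did the share over all peaks lie outside the interval of the members, which it did not in the central 200 bp.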
